A study of Homo sapiens with 4 samples.

Results

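The FOS, JUN, EGR and NPAS4 early factors are 10 genes: FOS, FOSB, FOSL1, FOSL2, JUN, JUNB, EGR1, EGR2, EGR3 and NPAS4. They were taken as all probe sets whose platform annotation gives 1 of these symbols. 19 probe sets of 9 genes met this rule, out of 19775 genes with a probe set of their own symbol. EGR2 was not analysed here, because no probe set used here carries its name. The study used 4 one-colour Affymetrix arrays for total RNA of 2 human neuroendocrine tumour lines in which DAXX, a chaperone of a histone H3 variant, was targeted by siRNA. The groups were DAXX-KD NCI-H727, control NCI-H727, DAXX-KD QGP1 and control QGP1, each with 1 array. NCI-H727 is titled a bronchial and QGP1 a pancreatic neuroendocrine tumour line. All 4 cultures were electroporated with siRNA at a final 50 nM, against DAXX or a universal negative control, so the controls share the electroporation. 2 DAXX siRNAs are named without saying whether they were pooled. The time between electroporation and RNA extraction is not given in the labels used here, and neither is serum or other stimulation.

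Most of these genes are immediate early genes: in resting cells their transcripts are scarce, and growth factors, calcium entry or stress switch them on within minutes without new protein synthesis. FOS and JUN family proteins carry a basic leucine zipper and bind DNA as AP-1 dimers. EGR proteins are zinc finger factors, and NPAS4 is a basic helix-loop-helix PAS factor that is induced by calcium entry in neurons and also in pancreatic beta cells. The ERK pathway, acting through serum response factor at CArG boxes, and cAMP or calcium signals, acting through CREB at cAMP response elements, are the usual inputs to their promoters.

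The promoters of 4 members with lower signal on the DAXX-KD arrays of NCI-H727 and of QGP1 are shown for the signal-responsive motifs they hold. The sequences are RefSeq's on GRCh38.p14, all on the plus strand, and run 250 bases up to the base before the transcription start. Capitals mark CArG boxes and TGACG, the core of the cAMP response element TGACGTCA, on either strand. For NPAS4 the more upstream of 2 listed starts was used. The windows are chr14:75278578-75278827 for FOS, chr19:45467746-45467995 for FOSB, chr5:138465229-138465478 for EGR1 and chr11:66420754-66421003 for NPAS4.
FOS: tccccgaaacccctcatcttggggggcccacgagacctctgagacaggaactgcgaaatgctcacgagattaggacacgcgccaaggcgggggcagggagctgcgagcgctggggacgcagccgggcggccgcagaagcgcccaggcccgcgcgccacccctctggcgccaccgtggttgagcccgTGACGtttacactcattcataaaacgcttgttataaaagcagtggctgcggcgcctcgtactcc
FOSB: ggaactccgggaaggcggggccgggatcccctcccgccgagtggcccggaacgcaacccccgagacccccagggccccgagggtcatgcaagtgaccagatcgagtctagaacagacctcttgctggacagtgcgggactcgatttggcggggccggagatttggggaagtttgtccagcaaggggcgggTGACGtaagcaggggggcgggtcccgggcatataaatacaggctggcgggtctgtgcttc
EGR1: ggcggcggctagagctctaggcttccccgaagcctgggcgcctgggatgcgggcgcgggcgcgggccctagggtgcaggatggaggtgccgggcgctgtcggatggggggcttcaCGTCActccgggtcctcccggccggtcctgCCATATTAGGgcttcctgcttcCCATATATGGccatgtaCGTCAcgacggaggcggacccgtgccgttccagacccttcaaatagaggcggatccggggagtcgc
NPAS4: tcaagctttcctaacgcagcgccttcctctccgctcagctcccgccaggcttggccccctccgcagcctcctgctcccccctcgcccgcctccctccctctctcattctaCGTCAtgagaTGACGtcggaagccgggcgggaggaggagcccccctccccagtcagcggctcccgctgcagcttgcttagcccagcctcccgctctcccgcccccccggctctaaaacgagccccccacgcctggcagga

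Each of these 4 windows held TGACG. It began 64 bases upstream of the start in FOS and 60 bases upstream in FOSB, and EGR1 and NPAS4 held 2 copies each. Of 8 members with a window, 7 held TGACG, whereas 21.6% of 27305 windows of the same length did. Those windows, 1 per gene, were not matched to the members for base composition, so enrichment was not tested. EGR2, the member without TGACG in this window, has 3 listed starts, of which the most upstream was used. Within these 250 bases, a CArG box was found in EGR1 alone, in 2 copies beginning 83 and 105 bases upstream, and in 1.15% of all windows. Sequence further upstream was not searched, so a motif absent from a window may still lie beyond it. The full element TGACGTCA, which contains TGACG, was in 0 of the 8 windows and in 1.75% of all, and the AP-1 motif TGANTCA in 0 of the 8 and in 6.57% of all. JUNB and FOSL2, whose differences were small in both lines at their brightest probe sets, held TGACG as well. FOSL1 and EGR3 have no window here.

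Values are log2 RMA signals, which are relative to the other probe sets of the same array; differences are DAXX-KD minus control. With 1 array per group there is no replicate and no test within a line, and the number of arrays limits the precision. Array medians lay between 5.31 and 5.36. Signals below 4.85, the 40th percentile of all probe sets, are close to background, and there RMA understates differences. At its brightest probe set, DAXX itself had signals of 6.14 in DAXX-KD and 7.35 in control NCI-H727 cells, 2.31-fold lower. In QGP1 cells these were 6.56 in DAXX-KD and 8.52 in control, 3.898-fold lower. The dimmer DAXX probe set gave differences of -0.83 in NCI-H727 (1.78-fold) and -2.14 in QGP1 (4.41-fold). The size of the DAXX decrease in NCI-H727 thus fell under 2-fold at that dimmer probe set. As a yardstick with no error between cultures in it, probe sets of the same gene disagreed with an SD of 0.275 in NCI-H727 and 0.202 in QGP1.

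Neuroendocrine markers were present on every array, with all 10 measured markers above 4.85 in both lines, and among markers of other cell types the highest signal was 5.62 for leukocytes, 6.04 for pancreatic exocrine cells, 7.17 for endothelial cells and 7.66 for fibroblasts. The last was COL1A1, a collagen gene, at 7.25 to 7.66 on all 4 arrays at its brightest probe set. That probe set has the x_at suffix of probes that bind several transcripts. The other COL1A1 probe sets were lower, from 2.22 to 6.53. Of 4 endothelial markers, KDR had the highest signal, 7.17 in DAXX-KD and 6.98 in control NCI-H727 cells. In QGP1 cells KDR was 4.94 in DAXX-KD and 4.45 in control. The brightest PECAM1 probe set was 6.80 in DAXX-KD against 5.74 in control QGP1 cells. The brightest VWF probe set was 4.92 in DAXX-KD against 4.93 in control QGP1 cells, and CDH5 was under 4.85 on all 4 arrays. The mean signal of the 4 was 5.64 in DAXX-KD and 5.45 in control NCI-H727 cells, and 4.99 in DAXX-KD and 4.66 in control QGP1 cells, and its part in the results was not tested. Lung and islet markers did not all follow the line names. Among those that limma called between the lines, NKX2-1, GRP and NKX2-2 went against the names, and SST, ISL1 and PAX6 followed them. NKX2-1, the lung and thyroid transcription factor, had signals of 3.23 and 3.35 on the arrays titled NCI-H727, under the filter level, and 8.38 and 8.77 on those titled QGP1; a second NKX2-1 probe set lay between 5.59 and 5.95 on all 4. GRP, the gastrin-releasing peptide of lung neuroendocrine cells, had 4.12 and 5.37 on the NCI-H727 arrays and 11.8 and 12.8 on the QGP1 arrays. The islet transcription factor NKX2-2 had 9.25 and 9.17 on the NCI-H727 arrays and 5.93 and 4.80 on the QGP1 arrays. In the direction of the titles, the hormone gene SST (-1.62, limma adjusted p = 0.00213), ISL1 (-0.65, 0.0142) and PAX6 (-1.31, 0.00196), both islet transcription factors, were lower in NCI-H727 than in QGP1. Of 5 islet markers tested, limma thus called 1 higher and 3 lower in NCI-H727, and of 5 lung neuroendocrine markers 0 higher and 2 lower, GRP and NKX2-1. Insulin was under 4.85 on all 4. The source name given for the NCI-H727 samples also mentions QGP1. Line names in the text are those of the titles: differences between DAXX-KD and control within a titled pair do not use them, and the sign of the contrast between lines does.

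**Figure D1:**
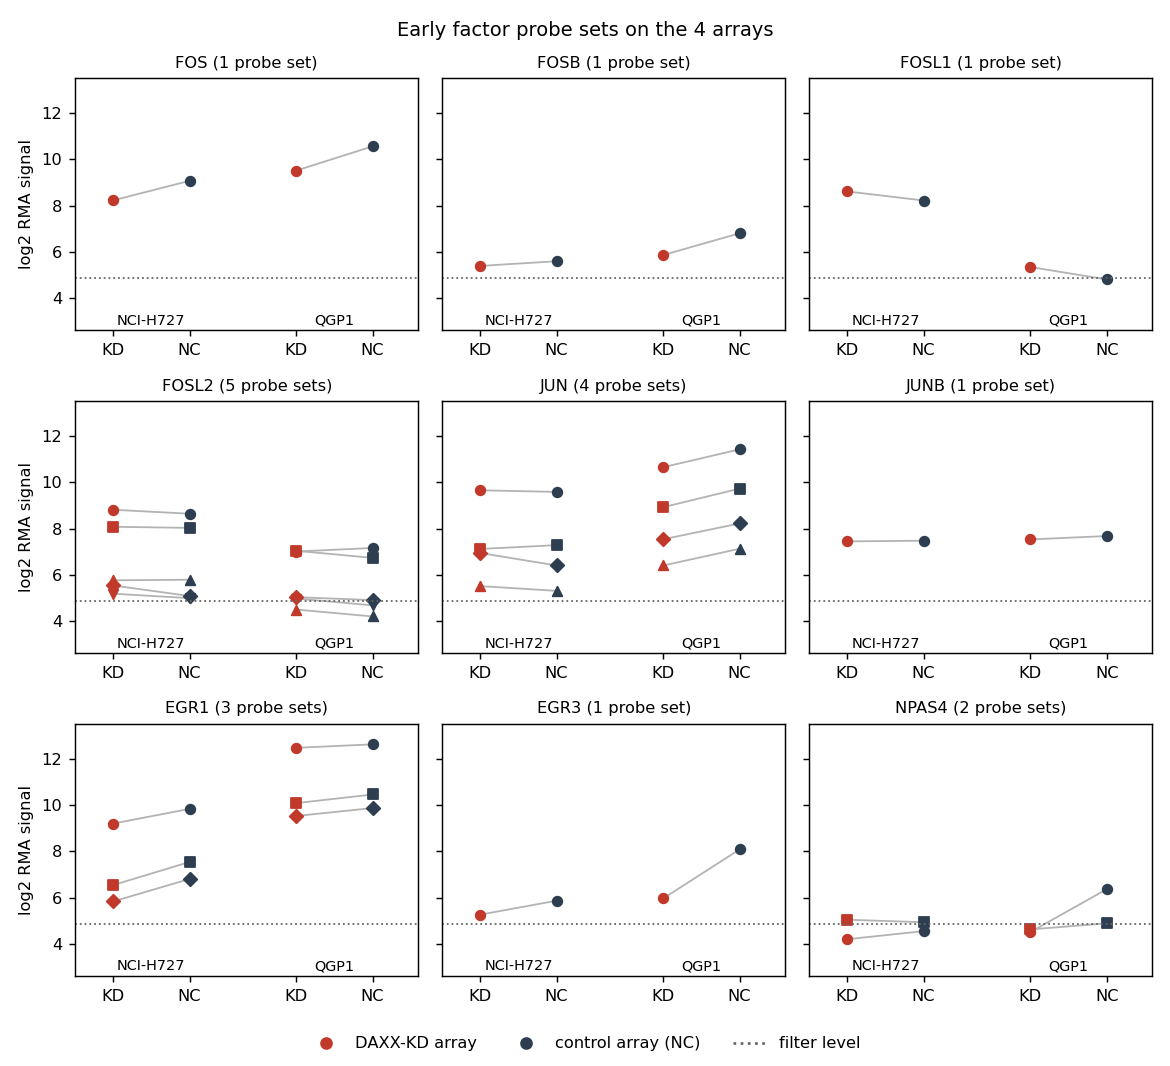
Log2 RMA signal (vertical axes) of all 19 probe sets of the 9 measured factors on each of the 4 arrays, with a marker shape per probe set, DAXX-KD arrays in red, control arrays (NC) in dark blue and the filter level of 4.85 dotted. FOSL1 and FOSL2 sit higher on the NCI-H727 arrays and EGR1 on the QGP1 arrays, and EGR3, FOS, FOSB, JUN and the brighter NPAS4 probe set are highest on the QGP1 control array.

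FOS, an AP-1 subunit that must dimerise to bind DNA, was lower after DAXX siRNA in both lines. Its signal was 8.23 in DAXX-KD and 9.07 in control NCI-H727 cells, and 9.51 in DAXX-KD and 10.6 in control QGP1 cells. The difference was -0.85 in NCI-H727 (1.797-fold lower) and -1.05 in QGP1 (2.07-fold lower), so 55.7% of the control signal was left in NCI-H727 and 48.4% in QGP1. Among 14648 genes tested, 291 were as low or lower in NCI-H727, and 31 in QGP1, FOS itself included. FOSB, which pairs with JUN proteins like FOS and accumulates in neurons after repeated stimulation, was 5.39 in DAXX-KD against 5.59 in control NCI-H727 cells and 5.86 in DAXX-KD against 6.80 in control QGP1 cells. That is a difference of -0.20 in NCI-H727, within the disagreement between probe sets of a gene, and of -0.94 (1.92-fold lower) in QGP1, where 42 genes were as low or lower.

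The FRA proteins FOSL1 and FOSL2, FOS relatives that lack its transactivation domain, did not share this direction. FOSL1 was 8.61 in DAXX-KD against 8.22 in control NCI-H727 cells and 5.34 in DAXX-KD against 4.81 in control QGP1 cells, with differences of 0.39 in NCI-H727 and 0.54 in QGP1; the QGP1 control value lay under the filter level. It was the 1 measured member whose brightest probe set was higher in both DAXX-KD arrays. The brightest FOSL2 probe set was 8.81 in DAXX-KD against 8.64 in control NCI-H727 cells and 7.00 in DAXX-KD against 7.16 in control QGP1 cells. Over its 5 probe sets the differences ran between -0.03 and 0.45 in NCI-H727 and between -0.15 and 0.30 in QGP1, 4 of 5 above 0 in each line. The FOS family was thus split by subunit, with FOS and FOSB lower in QGP1 and FOSL1 higher.

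JUN, the main dimer partner of FOS proteins, was lower in QGP1 at 4 of 4 probe sets. The brightest had signals of 9.65 in DAXX-KD and 9.58 in control NCI-H727 cells, and 10.7 in DAXX-KD and 11.4 in control QGP1 cells. The QGP1 difference was -0.77 there (1.71-fold lower) and between -0.80 and -0.68 over the 4 probe sets. In NCI-H727 the 4 probe sets differed by -0.17 to 0.54, with 1 of 4 below 0, so JUN has no common direction in that line. JUNB, a JUN relative that can restrain JUN activity, was 7.44 in DAXX-KD against 7.47 in control NCI-H727 cells and 7.53 in DAXX-KD against 7.68 in control QGP1 cells. Its differences of -0.03 in NCI-H727 and -0.15 in QGP1 were smaller than the SD between probe sets in both lines.

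EGR1, the zinc finger factor most often used as a readout of ERK signalling, had a larger difference in NCI-H727 than in QGP1 at all 3 probe sets. Its brightest probe set was 9.21 in DAXX-KD and 9.84 in control NCI-H727 cells, and 12.5 in DAXX-KD and 12.6 in control QGP1 cells. The differences there were -0.63 (1.55-fold lower) in NCI-H727 and -0.15 in QGP1, and the other 2 probe sets gave -0.997 and -0.971 in NCI-H727 and -0.37 and -0.34 in QGP1. The 2 dimmer probe sets thus gave almost 2-fold in NCI-H727. All 3 carry the s_at suffix, which marks probes shared between transcripts.

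EGR3, a relative of EGR1 with the same type of zinc fingers, showed the opposite order of sizes. Its 1 probe set was 5.27 in DAXX-KD and 5.87 in control NCI-H727 cells, and 5.97 in DAXX-KD and 8.09 in control QGP1 cells. The differences were -0.60 in NCI-H727 (1.52-fold lower) and -2.12 in QGP1 (4.34-fold lower). Of all genes tested, 649 were as low or lower in NCI-H727 and 3 in QGP1. The QGP1 control array stood above the other 3, which lay between 5.27 and 5.97.

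NPAS4 followed EGR3 at its brighter probe set and not at the other. That probe set was 4.20 in DAXX-KD and 4.55 in control NCI-H727 cells, and 4.51 in DAXX-KD and 6.37 in control QGP1 cells. The QGP1 difference of -1.85 is between a detected signal and a signal under the filter level, and 6 genes were as low or lower. The second probe set was 5.05 in DAXX-KD against 4.94 in control NCI-H727 cells and 4.63 in DAXX-KD against 4.89 in control QGP1 cells, with differences of 0.11 in NCI-H727 and -0.26 in QGP1. NPAS4 passed the filter on its mean signal through the QGP1 control array alone, so a difference there was bound to appear.

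**Figure D2:**
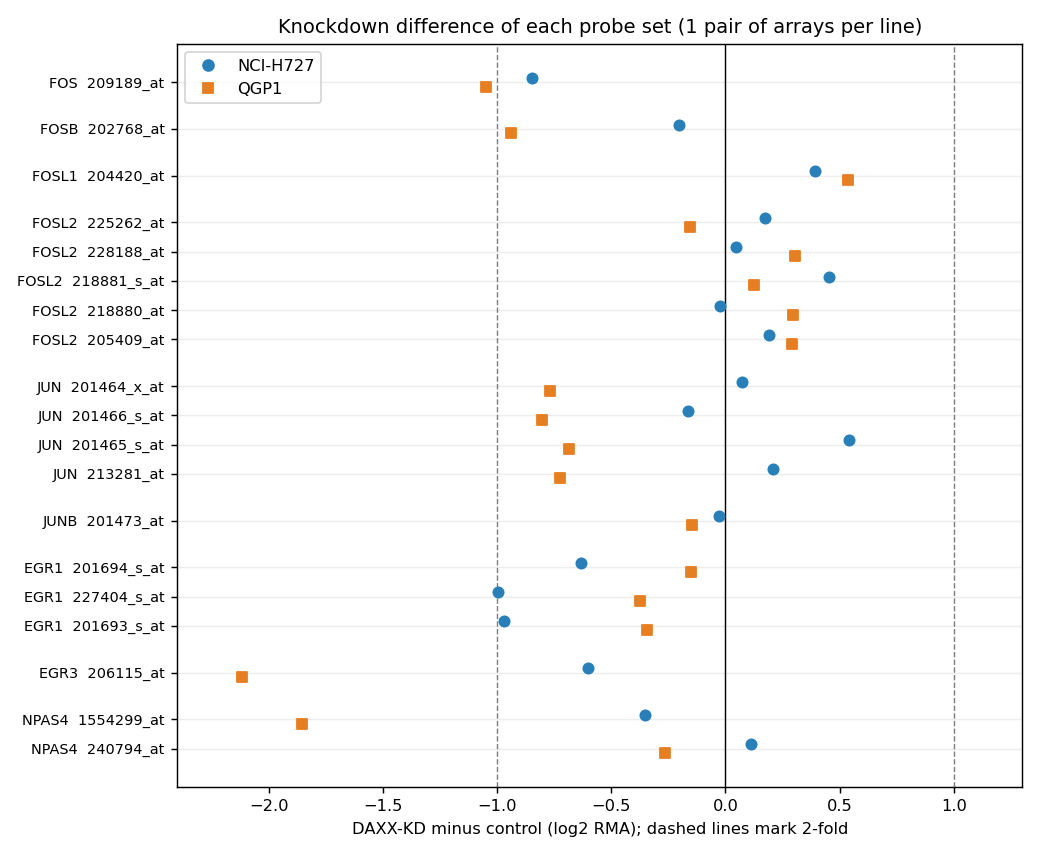
DAXX-KD minus control in log2 RMA (horizontal axis) of each of the 19 probe sets, NCI-H727 as blue circles and QGP1 as orange squares, 1 pair of arrays per line; dashed lines mark 2-fold. In QGP1, FOS, EGR3 and 1 of 2 NPAS4 probe sets lie past 2-fold on the lower side, and in NCI-H727 none of the 19 does, EGR1 coming closest at -0.997.

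Counted by the brightest probe set, 0 of the 9 measured members were at least 2-fold lower in DAXX-KD NCI-H727 cells, where 1.32% of all genes tested were, and 0 were at least 2-fold higher (0.177% of all). In QGP1, 3 of 9 were at least 2-fold lower, EGR3, NPAS4 and FOS, beside 0.232% of all genes, and 0 were at least 2-fold higher (0.259% of all). Without NPAS4, which passed the filter through the QGP1 control array alone, this was 2 of 8. At 1.5-fold, 3 of 9 were lower in NCI-H727 (FOS, EGR1 and EGR3; 4.96% of all) and 5 of 9 in QGP1 (EGR3, NPAS4, FOS, FOSB and JUN; 1.32% of all), or 4 of 8 in QGP1 without NPAS4. FOS and EGR3 were 1.5-fold lower in both lines, beside 0.703% of all genes. In 6 of 9 the signal was lower in both lines by any amount, beside 22.6% of all genes, and without NPAS4 in 5 of 8. The median difference of the 9 was -0.20 in NCI-H727 and -0.77 in QGP1, that of the 8 without NPAS4 -0.12 in NCI-H727 and -0.46 in QGP1, and that of all genes tested 0.02 in both. These members were chosen with earlier results of the same arrays known, so the counts describe them and support nothing further.

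**Figure D3:**
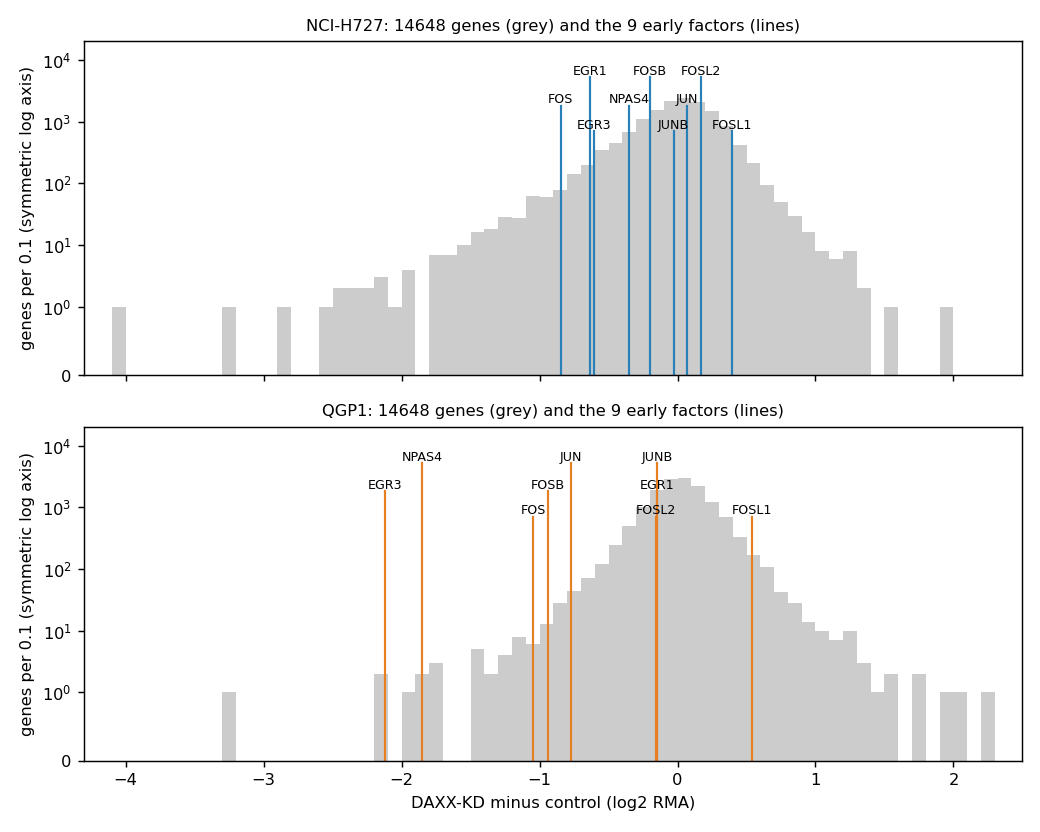
Number of genes per 0.1 log2 unit (vertical axes, symmetric log scale) against DAXX-KD minus control (horizontal axis) for 14648 genes in NCI-H727 (upper) and QGP1 (lower), with lines at the 9 measured factors. In QGP1, EGR3 and NPAS4 lie at the lower edge of the distribution and FOS, FOSB and JUN in its lower tail; in NCI-H727 FOS at -0.85, EGR1 and EGR3 lie in a broader lower tail.

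The knockdown was repeated only across lines. In a limma fit over all 4 arrays, with terms for treatment and for line, 0 of 14648 genes (0%) and hence 0 of the 9 members passed an adjusted p of 0.05; the smallest adjusted p of any gene was 0.374. FOS had that value, with a difference of -0.95 (SE 0.13, 95% interval -1.29 to -0.60, lower in 2 of 2 lines). Other genes shared it, among them DAXX, the siRNA target, which thus did not pass either (-1.59, SE 0.21). The limma difference of EGR3 was -1.36 (SE 0.36, adjusted p = 0.567, lower in 2 of 2 lines). At an unadjusted p under 0.05, limma had 4 of 9 members lower (FOS, FOSB, EGR3 and NPAS4; 4.12% of all genes) and 1 of 9, FOSL1, higher (2.80% of all genes); without NPAS4, 3 of 8 were lower. The intervals of JUN (-0.92 to 0.22), EGR1 (-0.81 to 0.03), JUNB (-0.42 to 0.24) and FOSL2 (-0.36 to 0.38) held 0. Whether the difference of a member was unlike between the lines could not be tested, since a line-by-treatment term leaves no residual degree of freedom. The NCI-H727 difference minus the QGP1 difference was 1.51 for EGR3, 1.502 for NPAS4, 0.84 for JUN, 0.74 for FOSB, 0.20 for FOS and -0.48 for EGR1.

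The level of most members differed between the lines: FOSL1 and FOSL2 were higher in NCI-H727, and EGR1, JUN, FOS, EGR3 and FOSB were lower there. FOSL1 was 8.61 and 8.22 on the DAXX-KD and control arrays of NCI-H727 and 5.34 and 4.81 on those of QGP1, 10.1-fold higher in NCI-H727 (log2 difference 3.34, SE 0.13; limma adjusted p = 5.12e-05). The brightest FOSL2 probe set was 3.13-fold higher in NCI-H727 (1.64, SE 0.15; limma adjusted p = 0.00075), and 5 of 5 FOSL2 probe sets were higher in NCI-H727 under both treatments, by 0.18 to 1.81. EGR1 was lower in NCI-H727 by 8.19-fold (-3.03, SE 0.17; limma adjusted p = 0.000145), and 3 of 3 probe sets were lower under both treatments, with log2 differences of -3.70 to -2.79. FOS was 2.62-fold lower in NCI-H727 (-1.39, SE 0.13; limma adjusted p = 0.000993) and JUN 2.68-fold lower (-1.42, SE 0.22; limma adjusted p = 0.00503), with 4 of 4 JUN probe sets lower under both treatments. In the same limma fit 2 of 9 members were higher in NCI-H727 and 5 of 9 lower, beside 23.2% of all genes tested higher and 25.1% lower. The arrays of the 2 lines did not overlap for 2 of 9 members with NCI-H727 above (40.2% of all genes) and 6 of 9 with NCI-H727 below (37.0% of all genes). With 2 arrays a line, an exact permutation test of a single gene could not go below p = 0.333.

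EGR3, FOSB and JUN differed between the lines more on the control arrays than on the DAXX-KD arrays. NCI-H727 minus QGP1 was -0.70 for EGR3 between the DAXX-KD arrays and -2.22 between the control arrays. For FOSB it was -0.47 between the DAXX-KD arrays and -1.21 between the control arrays. For the brighter NPAS4 probe set it was -0.31 between the DAXX-KD arrays and -1.81 between the control arrays, but 3 of its 4 signals lay under 4.85 and only QGP1 control was above it, so this pattern was fixed by the filter. The second NPAS4 probe set ran the other way, with 0.42 between the DAXX-KD arrays and 0.045 between the control arrays. EGR3 (-1.46, SE 0.36, limma adjusted p = 0.0219) and FOSB (-0.84, SE 0.21, limma adjusted p = 0.0221) passed in the joint fit, and NPAS4 did not (-1.06, SE 0.35, limma adjusted p = 0.0575). Without the treatment term neither EGR3 (limma adjusted p = 0.133, range over the alternatives 0.00736 to 0.133) nor FOSB (0.0763, range 0.0108 to 0.0763) passed. JUNB was the member closest to equal between the lines (-0.14, 95% interval -0.47 to 0.19; limma adjusted p = 0.403).

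**Figure D4:**
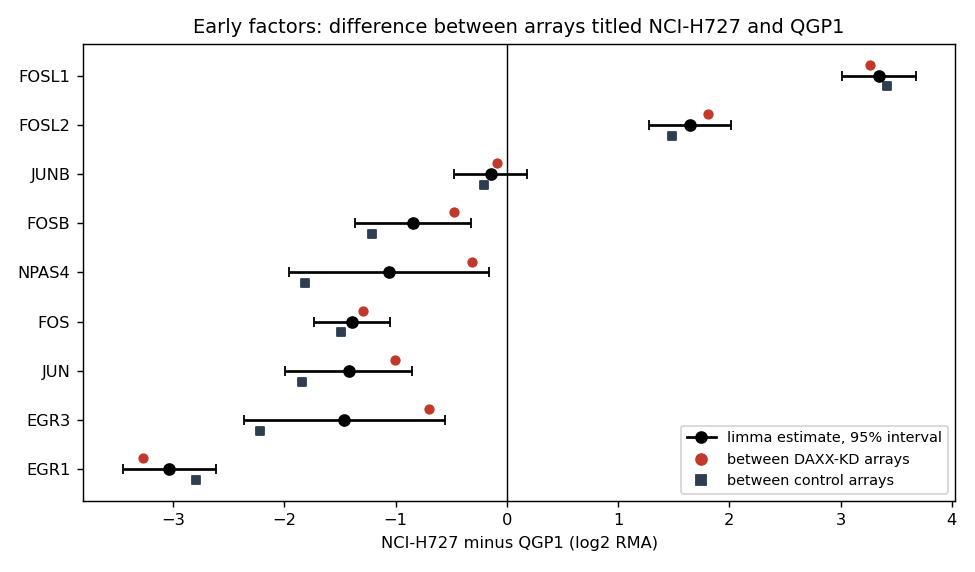
NCI-H727 minus QGP1 in log2 RMA (horizontal axis) for the brightest probe set of each factor: the limma estimate over 4 arrays with its 95% interval in black, the difference between DAXX-KD arrays in red and between control arrays as dark blue squares. FOSL1 (3.34) and FOSL2 (1.64) are higher in NCI-H727, and EGR1 (-3.03), JUN, FOS, EGR3 and FOSB lower. For EGR3, FOSB and JUN the control arrays lie further apart than the DAXX-KD arrays. For NPAS4 all arrays but QGP1 control are under the filter level.

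Partners and corepressors of these factors were mostly near 0. Of 20 measured genes of this kind, 1 was at least 2-fold lower and 0 higher in NCI-H727, and 0 lower and 1 higher in QGP1, with median differences of 0.03 in NCI-H727 and -0.01 in QGP1. The 1 in NCI-H727 was NPAS2, a circadian relative of NPAS4, at 6.75 in DAXX-KD against 7.79 in control cells (-1.04), with -0.09 in QGP1. The 1 in QGP1 was JDP2, which dimerises with JUN and represses AP-1 sites, at 6.98 in DAXX-KD against 5.74 in control cells (1.24), with -0.52 in NCI-H727. MAF, a basic leucine zipper factor that can pair with FOS and JUN, was 5.41 in DAXX-KD against 6.16 in control NCI-H727 cells and 5.55 in DAXX-KD against 6.54 in control QGP1 cells, differences of -0.75 in NCI-H727 and -0.99 in QGP1. BATF3, which pairs with JUN proteins, differed by 0.37 in NCI-H727 and 0.51 in QGP1. NAB2, an EGR corepressor, differed by 0.14 in NCI-H727 and -0.01 in QGP1. In limma 0 of the 20 passed for DAXX-KD.

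Upstream factors here were serum response factor, its ETS and MRTF partners, CREB-type factors and their kinases. Of 23 with a probe set, 22 passed the filter, and 0 of these 22 were past 1.5-fold in either line. Their medians were 0.03 in NCI-H727 and 0.01 in QGP1. SRF itself differed by -0.54 in NCI-H727 and -0.08 in QGP1, and ELK4, an ETS partner of serum response factor, by 0.28 in NCI-H727 and 0.34 in QGP1. CREM, a CREB relative that includes a repressor isoform, was 8.06 in DAXX-KD against 7.72 in control NCI-H727 cells and 10.1 in DAXX-KD against 9.64 in control QGP1 cells, differences of 0.33 in NCI-H727 and 0.42 in QGP1. Between the lines, its level was 3.89-fold lower in NCI-H727 (limma adjusted p = 0.000267). In limma 0 of the 22 passed for DAXX-KD. These are transcript signals and say nothing of phosphorylation, through which this layer is switched.

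Other immediate early genes did not follow EGR3, NPAS4 and FOS as a group. Of 38 such genes with a probe set, 37 passed the filter. Of these 37, 10 were below 0 in NCI-H727 and 19 in QGP1, and 0 were past 2-fold in either line. Of all 14648 genes, 6934 were below 0 in NCI-H727 and 6761 in QGP1. At 1.5-fold, 4 of 37 were lower in NCI-H727 (4.96% of all genes) and 0 in QGP1 (1.32% of all). The 4 were DUSP2, ATF3, CCN2 and ARC. The ARC signal in DAXX-KD NCI-H727 cells was 4.50, under the filter level, against 5.09 in control cells. ATF3 differed by -0.65 in NCI-H727 and 0.35 in QGP1. In each line 1 was 1.5-fold higher, beside 235 of 14648 genes in NCI-H727 and 255 in QGP1. The medians of the 37 were 0.11 in NCI-H727 and -0.06 in QGP1. DUSP2, a nuclear phosphatase of ERK, was 5.31 in DAXX-KD against 6.06 in control NCI-H727 cells and 8.45 in DAXX-KD against 9.02 in control QGP1 cells, differences of -0.75 in NCI-H727 and -0.57 in QGP1. ARC, the synaptic protein that EGR1 and EGR3 are known to induce in neurons, differed by -0.59 in NCI-H727 and -0.39 in QGP1, and CCN2, a matricellular protein and target of serum response factor, by -0.60 in NCI-H727 and -0.53 in QGP1. In the other direction, PHLDA1 differed by 0.48 in NCI-H727 and 0.99 in QGP1, and the ERK phosphatase DUSP5 by 0.62 in NCI-H727 and 0.49 in QGP1. In limma 0 of the 37 passed for DAXX-KD. NR4A2, an orphan nuclear receptor often induced together with FOS, differed by 0.073 in NCI-H727 and 0.018 in QGP1.

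**Figure D5:**
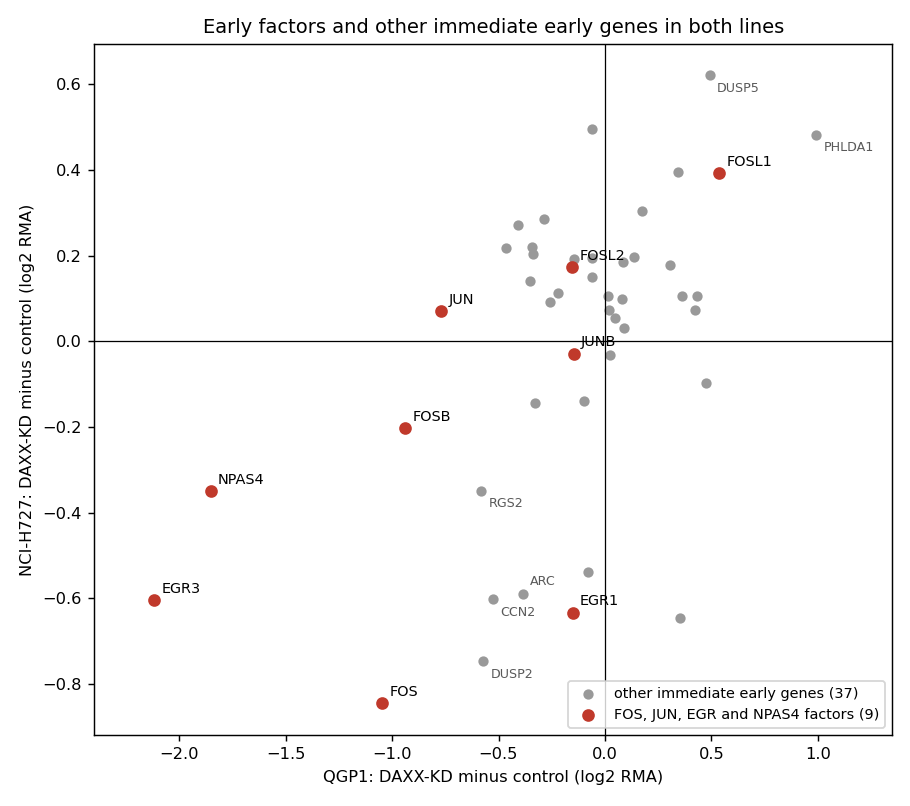
DAXX-KD minus control in log2 RMA in QGP1 (horizontal axis) against NCI-H727 (vertical axis), with the 9 measured factors in red and 37 other immediate early genes in grey. EGR3, NPAS4, FOS, FOSB and JUN lie left of every grey point, that is lower in QGP1; downward, in NCI-H727, only FOS of these 5 lies below every grey point, the lowest of which is DUSP2 at -0.75, and FOSL1 lies at the upper right near DUSP5 and PHLDA1.

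The genes most like FOS, EGR1 and EGR3 over the 4 arrays were found by the Euclidean distance between values centred on each gene's mean, over 14648 genes. For FOS they were STXBP4 (distance 0.26) and the histone genes H2BC6 (0.28) and H2BC9 (0.31), the histone probe sets having the x_at suffix of probes that bind several transcripts. For EGR1 they were MECOM (0.13), PCDHB8 (0.13) and DLG2 (0.13). For EGR3 they were NPAS4 at its brighter probe set (0.48), H2BC6 (0.52) and H2BC12L (0.60). NPAS4 passed the filter through the QGP1 control array alone, so its peak on that array was fixed by the filter. The second NPAS4 probe set differed by 0.11 in NCI-H727 and -0.26 in QGP1 and did not have that peak. With 4 arrays such a likeness is a description of these signals.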

How the data were processed

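Each of the 4 samples was measured on 1 array. The deposited table holds log2 signals; per the submitters' processing notes they come from RMA, with affy 1.40.0 in R 3.0.3. RMA removes background, makes the arrays' distributions equal by quantiles and combines the probes of a probe set. Groups came from the sample titles. Of 54613 probe sets, 41091 had 1 gene symbol in the platform annotation; those with several (1801) or none (11721) were not used. In fits a gene was its brightest probe set over the 4 arrays. Genes whose mean lay below 4.85, the 40th percentile over the table, were dropped, which left 14648. Per line, the log2 difference was described by size. The joint fit (limma 3.58.1 in R 4.3.3) had terms for treatment and line, 1 residual and 4.18 prior degrees of freedom, and two-sided p-values adjusted by Benjamini-Hochberg over all genes tested; its script was tested on simulated data. Its p-values measure only the spread between these samples, which nothing says were repeated cultures. Motifs were searched on both strands of 1 RefSeq window per gene. The members and gene lists were chosen with earlier results of these data known. The text names the 10 members, DAXX, and of each list of partners, upstream factors, other early genes and targets the genes past 2-fold in a line, those limma called for DAXX-KD and the 3 with the largest mean difference over both lines. NAB2, NR4A2, DUSP5 and ATF3 were outside this rule and were named for their roles or after their values were seen, as were the markers named. Alternatives changed the probe set per gene, the filter, the unit of the fit, the normalization, the limma prior, the probe set suffixes and the block.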

Additional observations from a re-analysis of the deposited data

Results flagged for a closer look

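JUN and FOSL2 had opposite signs in the 2 lines at their brightest probe sets. JUN differed by 0.070 in NCI-H727 and -0.77 in QGP1, DAXX-KD minus control. FOSL2 differed by 0.17 in NCI-H727 and -0.15 in QGP1. With 1 pair of arrays per line the difference between lines was not tested for either gene. The NCI-H727 value of JUN and both FOSL2 values are smaller than the SD between probe sets of a gene, and 4 of 5 FOSL2 probe sets were above 0 in each line.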

How the results depend on the processing

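The count of members past 2-fold in each direction and line was the same when probe sets were averaged per gene, with no filter, every probe set as a unit, a second quantile normalization, no x_at or s_at probe sets, and, chosen after seeing the data, leaving out genes with both arrays of a line under the filter level. Without x_at and s_at probe sets EGR1 dropped out, since all 3 of its probe sets are s_at, so that setting says nothing of EGR1. Averaged over probe sets, NPAS4 differed by -1.06 in QGP1 and FOSL2 by 0.17. For DAXX-KD, limma called 0 members with each of these settings that was fitted, with an intensity trend and without the line block; the adjusted p of FOS ranged from 0.0807 to 1. Over all genes, limma with an intensity trend called 5 for DAXX-KD. Between the lines, limma called 3 members lower without the treatment term (5 with it), losing FOSB and EGR3. NPAS4 passed with a second quantile normalization (limma adjusted p = 0.0423), with an intensity trend (0.028) and without x_at and s_at probe sets (0.0495). It did not pass with every probe set as a unit (limma adjusted p = 0.05815), no filter (0.0812), probe sets averaged (0.166, log2 difference -0.41) or no treatment term (0.1905). As only the QGP1 control signal of its brighter probe set lay above 4.85, passing the filter fixed this direction. These p-values thus support no difference in NPAS4 between the lines. With every probe set as a unit, limma called 5825 higher and 6683 lower in NCI-H727, of 27215 units tested. No paired analysis beyond the cell line block was possible because each group has 1 array. Leaving out an array leaves no residual degree of freedom in the joint fit. Among the members, signals near 4.85 limit NPAS4 and, in QGP1, FOSL1.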

Other observations

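Of 21 AP-1 target genes with a probe set, 17 passed the filter. Of these 17, 0 were at least 2-fold apart in NCI-H727 and 1 was at least 2-fold lower in QGP1. Their median differences were 0.29 in NCI-H727 and 0.03 in QGP1. The 1 was MMP10, stromelysin 2, a secreted protease, at 5.13 in DAXX-KD and 6.12 in control NCI-H727 cells and at 7.04 in DAXX-KD and 8.21 in control QGP1 cells. Its differences were -0.99 in NCI-H727 and -1.17 in QGP1, and its limma adjusted p for DAXX-KD was 0.374, the smallest of any gene. The intermediate filament gene VIM differed by 0.95 in NCI-H727 and 0.13 in QGP1, and SPP1, osteopontin, by 0.83 in NCI-H727 and 0.37 in QGP1. Between the lines, limma called 13 of 17 higher and 3 lower in NCI-H727 than in QGP1, beside 23.2% of all genes higher and 25.1% lower.

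Of 20 EGR and NPAS4 target genes with a probe set, 19 passed the filter. Of these 19, 1 was at least 2-fold higher in DAXX-KD NCI-H727 cells. That was the matrix glycoprotein THBS1 (8.88 in DAXX-KD against 7.62 in control cells, a difference of 1.25). In QGP1, 0 of the 19 were at least 2-fold apart. The medians were 0.24 in NCI-H727 and -0.12 in QGP1. VEGFA, a growth factor for blood vessels, differed by 0.26 in NCI-H727 and 0.80 in QGP1. In limma 0 of the 19 passed for DAXX-KD. In the same fit 6 of 19 were higher and 5 lower in NCI-H727 than in QGP1, near the shares over all genes, 23.2% higher and 25.1% lower.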
